A study of Homo sapiens with 9 samples.

Results

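Integrated stress response genes were followed through the RNA polymerase II (RNAPII) peaks of human embryonic kidney HEK293 cells in which the helicase RECQL5 was depleted or overproduced. The set consisted of 10 named genes, of 20163 protein-coding genes in the annotation: ATF4, ATF3, DDIT3, PPP1R15A, TRIB3, SESN2, ASNS, PSAT1, CHAC1 and VEGFA. Peaks were taken when they overlapped the span of one of these genes, widened by 500 bp on each side, and 143 of the 142069 peaks in 5 lists did so. Peaks reaching within 500 bp of the start of any protein-coding transcript of the gene were counted as its TSS peaks, and all others over the widened span as body peaks. Positions are those of GRCh37, the build of the lists.

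The study asked how RNAPII is distributed along genes when the level of RECQL5, a helicase that binds the polymerase, is changed. RNAPII chromatin immunoprecipitation and sequencing gave 5 libraries, each the only library of its group, so that no difference given here has a replicate check or a p-value. In the knockdown arm, HEK293 cells were infected with lentivirus carrying an empty pLKO.1 vector (control shRNA) or a hairpin against RECQL5 (shRNA5 or shRNA7). In the overexpression arm, HEK293 T-REx cells carried the pcDNA4/TO-RECQL5 plasmid, with full-length RECQL5 behind a doxycycline-inducible promoter, and received doxycycline at 0.0 or 1.0 ng/ml. Both libraries of that arm came from plasmid-bearing, Zeocin-selected cells, so the library without doxycycline is not one of unmodified cells. The 4 IgG libraries served as background for peak calling, 1 each for the control shRNA, shRNA5 and shRNA7 cells and a single library from untreated cells for both doxycycline doses. Of 4 genes used as markers of HEK293 cells, 1, 2, 2, 3 and 2 carried a TSS peak with the control shRNA, upon shRNA5, upon shRNA7, and in the lists without and with doxycycline, with VIM in every list and NEFM in none. Of 4 markers of other cell types (ALB, PTPRC, HBB and INS), none had a TSS peak in any list. The weakest peaks rested on 35, 27, 26, 9 and 11 tags in the same order of lists, and the lists held 5287, 23698, 32124, 47060 and 33900 peaks. Library totals are not part of the peak lists, so tags were not scaled for depth, and lists were compared only within an arm.

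In the integrated stress response, kinases that sense different stresses phosphorylate the translation factor eIF2alpha. Bulk protein synthesis then slows, while translation of a few messages, ATF4 among them, goes up. ATF4 and its partners switch on genes for amino acid supply, transport and redox defence, and also CHOP (encoded by DDIT3) and GADD34 (encoded by PPP1R15A), which directs a phosphatase back to eIF2alpha and so closes a feedback loop.

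The promoters of the set were examined for the sites through which this response is known to act. RefSeq promoter sequences (table of build GRCh38.p14, each matched exactly to GRCh37) were found for 9 of the 10 genes. The 250 bases before the RefSeq start were searched on both strands. Only the first promoter listed for a gene was used, so promoters at its other starts were not searched. TGATGNAA, the core of the composite ATF and C/EBP element, was found in ATF3, ASNS and CHAC1, and in 3.19% of all 27305 promoters. Its stricter form TGATGCAA, which lies inside the former, was found in CHAC1 and in 0.82% of all promoters. TGACGTCA, the cyclic AMP response element bound by ATF family factors, was found in PPP1R15A and in 1.77% of all promoters. TATAAA was found in ATF4 and PPP1R15A (11.1% of all promoters), and CCAAT in ATF3, DDIT3, CHAC1, SESN2 and PSAT1 (33% of all promoters). The windows of 100 bases that hold these sites are shown 5′ to 3′ on the strand of the gene, because the peaks described in the following paragraphs lie over some of them and not over others. Capitals mark matches to TGATGNAA, TGACGTCA or TATAAA on either strand.
CHAC1, plus strand, chr15:41245419-41245518: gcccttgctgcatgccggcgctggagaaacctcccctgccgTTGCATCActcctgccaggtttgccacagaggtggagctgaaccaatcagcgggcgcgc
ASNS, minus strand, chr7:97501721-97501820: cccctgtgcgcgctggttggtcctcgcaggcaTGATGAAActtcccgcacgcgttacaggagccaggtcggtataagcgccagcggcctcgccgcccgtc
ATF3, plus strand, chr1:212738499-212738598: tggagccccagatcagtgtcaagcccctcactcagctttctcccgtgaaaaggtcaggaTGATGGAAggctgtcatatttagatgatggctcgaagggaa
PPP1R15A, plus strand, chr19:49375578-49375677: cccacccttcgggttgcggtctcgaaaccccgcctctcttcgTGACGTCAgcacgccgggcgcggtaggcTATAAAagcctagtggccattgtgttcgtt
ATF4, plus strand, chr22:39916464-39916563: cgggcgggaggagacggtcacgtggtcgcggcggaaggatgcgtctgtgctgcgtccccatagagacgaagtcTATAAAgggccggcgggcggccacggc
The windows of PPP1R15A and ATF4 lay wholly under a peak in all 5 lists. Those of ASNS and CHAC1 lay under a peak in every list except the control shRNA list, and that of ATF3 under none. The ATF3 promoter searched lies at its outermost start, whereas its TSS peaks lay at internal starts, whose promoters were not searched. Median GC content of the 9 promoters was 65.6%, against 58% over all promoters, with a median of 22 CpG dinucleotides against 11. A match in these letters is a description of the sequence and not evidence of binding.

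The set was first asked for RNAPII at its start sites. With the control shRNA 6 of the 10 genes had a TSS peak (exact 95% interval 26.2 to 87.8%, counting error only, as for all intervals here), against 17.2% of all protein-coding genes. In each of the other lists all 10 genes had one (interval from 69.2%), against 44.5% of all genes upon shRNA5, 52.8% upon shRNA7, and 56.9% and 48.2% without and with doxycycline. The 4 genes lacking a TSS peak in the control list were ASNS, TRIB3, CHAC1 and VEGFA. ATF3 and TRIB3, and in the control list DDIT3, owed their TSS peaks to internal starts. When only the outermost start of each gene was used, a TSS peak remained in 4 genes of the control list and in 8 of each other list.

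**Figure D1:**
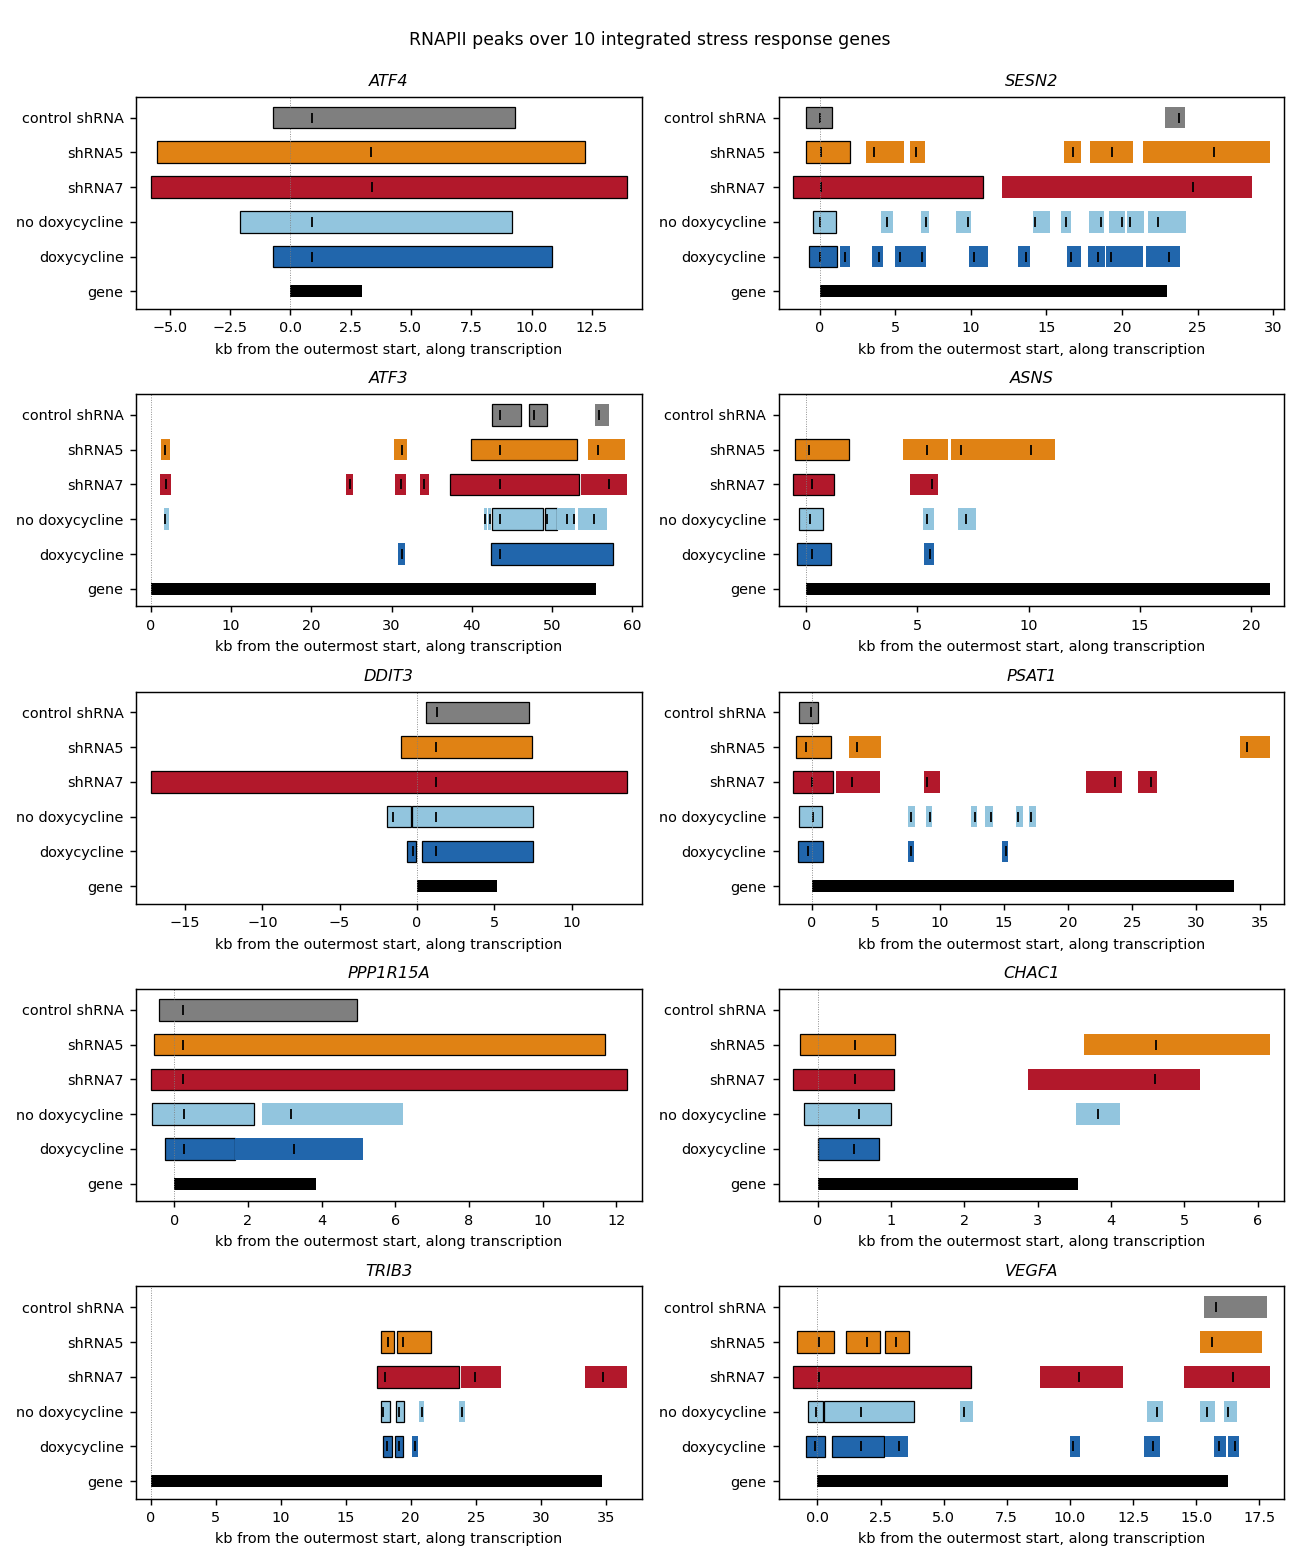
RNAPII peaks of each list over the 10 genes, drawn to scale in kb from the outermost annotated start along the direction of transcription. Coloured bars are peaks (outlined bars are TSS peaks), ticks are summits and the black bar is the gene; TRIB3, ASNS and CHAC1 have no peak in the control shRNA list, and the peaks of ATF4, DDIT3 and PPP1R15A reach past the gene end.

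The regulators came first. ATF4 (ENSG00000128272, chr22:39915700-39918688, plus strand), the transcription factor at the centre of the response, had the highest tags per kb of TSS peak of the set in each of the 5 lists. Its single peak held 1175 tags with the control shRNA, 2185 upon shRNA5, 3568 upon shRNA7, and 1181 and 1223 without and with doxycycline. Both knockdown lists were thus above the control, and the doxycycline lists were near each other. The ratio to the control was 1.86 for shRNA5 (interval 1.73 to 1.998) and 3.04 for shRNA7 (2.84 to 3.25), at the 36.7th and 39.1st percentiles of all genes with a TSS peak in both lists of the comparison. With doxycycline the ratio was 1.04 (0.955 to 1.12), an interval that includes 1. The peak was longer than the gene of 2989 bp in every list: 9995 bp with the control shRNA, 17708 bp upon shRNA5, 19765 bp upon shRNA7, and 11260 bp and 11548 bp without and with doxycycline. Tag density was 118, 123 and 181 tags per kb with the control shRNA, shRNA5 and shRNA7, so that per length shRNA5 was close to the control and shRNA7 was not. In the doxycycline arm it was 105 without the drug and 106 with it.

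The point of highest signal within the ATF4 peak was not in the same place in all lists. The summit lay 7 bp before the start at position 39916609 with the control shRNA, and 6 bp before it in both doxycycline lists. Upon shRNA5 and shRNA7 it lay 351 and 399 bp past the annotated end of the gene. The promoter window with TATAAA shown above was covered in all of them. Upon shRNA7 the peak also reached within 500 bp of a start of RPS19BP1, so its tags cannot be taken as those of ATF4 alone.

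ATF3 (ENSG00000162772, chr1:212738676-212794119, plus strand), a stress-induced factor that ATF4 activates, has an outermost start that no peak touched in any list, as for its promoter window above. The summits of its main TSS peak lay 22 to 59 bp past an internal start at 212782103, about 43 kb into the span. TSS tags were 324 with the control shRNA, 1268 upon shRNA5, 1531 upon shRNA7, and 460 and 1090 without and with doxycycline. ATF3 was the one member with at least 2-fold more TSS tags in both knockdown lists and in the doxycycline list than in the list each was compared with. The ratios were 3.91 for shRNA5 (3.46 to 4.44, 84.8th percentile), 4.73 for shRNA7 (4.19 to 5.34, 60.7th percentile) and 2.37 for doxycycline (2.12 to 2.65, 98.1st percentile). The doxycycline value depends on how the peaks were joined. With doxycycline there was 1 TSS peak of 15172 bp, whereas without it the same region held 2 TSS peaks of 6462 and 1486 bp and several body peaks. Over all peaks of the gene, a measure chosen after these values were seen, tags numbered 1132 with doxycycline and 659 without (ratio 1.72, interval 1.56 to 1.89, 89.7th percentile), and per kb of TSS peak the ratio was 1.24.

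DDIT3 (ENSG00000175197, chr12:57910371-57915520, minus strand), the gene of CHOP, a factor that promotes cell death under lasting stress, had 398 TSS tags with the control shRNA, 900 upon shRNA5, 3065 upon shRNA7, and 496 and 571 without and with doxycycline. Within the knockdown arm the shRNA7 list was the highest by far. Ratios were 2.26 for shRNA5 (2.01 to 2.55), 7.70 for shRNA7 (6.94 to 8.57) and 1.15 for doxycycline (1.02 to 1.30). The shRNA7 peak was 30842 bp long, and 19.9% of it lay within the widened gene span. In every list a peak at DDIT3 also reached within 500 bp of a start of MARS1, MBD6 and ENSG00000285133, and upon shRNA7 of DCTN2 as well. Tags of DDIT3 cannot be told apart from those of these neighbours. Per kb, density was 59.8, 106 and 99.4 with the control shRNA, shRNA5 and shRNA7, so the knockdown lists were close to each other on that scale.

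Feedback genes followed. PPP1R15A (ENSG00000087074, chr19:49375469-49379316, plus strand) had 346 TSS tags with the control shRNA, 1471 upon shRNA5, 2003 upon shRNA7, and 170 and 153 without and with doxycycline. Knockdown lists were above the control by 4.25 (3.78 to 4.79) and 5.79 (5.16 to 6.51). With doxycycline the ratio was 0.900 (0.719 to 1.13), an interval that includes 1, and it was 1.98 when the TSS window was 1 kb, which took in the body peak next to the TSS peak in the doxycycline list. Tags per kb were 64.4 with the control shRNA, 120 upon shRNA5 and 155 upon shRNA7. These ratios of density, 1.86 and 2.40, stood at the 98.0th and 95.8th percentiles of all genes, the highest of the set in both comparisons. The summit stayed within 20 to 47 bp past the start at 49375678 in all 5 lists, just downstream of the TGACGTCA and TATAAA letters printed above. In the knockdown lists the peak extended to 12246 bp (shRNA5) and 12941 bp (shRNA7), against 5371 bp with the control shRNA and 3848 bp for the gene.

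SESN2 (ENSG00000130766, chr1:28586029-28609002, plus strand), which encodes sestrin 2, an inhibitor of mTORC1 signalling, had 84 TSS tags with the control shRNA, 185 upon shRNA5, 819 upon shRNA7, and 130 and 139 without and with doxycycline. The ratio for shRNA5 was 2.20 (1.69 to 2.89), and that for shRNA7, 9.75 (7.78 to 12.4), was the highest of the set. Its summits lay between 3 bp before and 67 bp past its only annotated start. Upon shRNA7 the TSS peak ran for 12583 bp, against 1719 bp with the control shRNA. Density was 48.9, 62.9 and 65.1 tags per kb with the control shRNA, shRNA5 and shRNA7, a ratio of 1.33 for shRNA7 at the 25.4th percentile. Most of the difference in tags for SESN2 therefore went with the length of the peak.

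TRIB3 (ENSG00000101255, chr20:343479-378203, plus strand), a pseudokinase that restrains ATF4 and CHOP, had no peak with the control shRNA. It had 152 TSS tags upon shRNA5, 416 upon shRNA7, and 27 and 36 without and with doxycycline (ratio 1.33, interval 0.787 to 2.28). Its TSS peaks lay at internal starts, with summits 17879 to 19425 bp past the outermost start. Without and with doxycycline they rested on 12 to 21 tags each. TRIB3 had the lowest tags per kb of TSS peak of the set upon shRNA5 (41.9), without doxycycline (20.1) and with it (30.2).

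**Figure D2:**
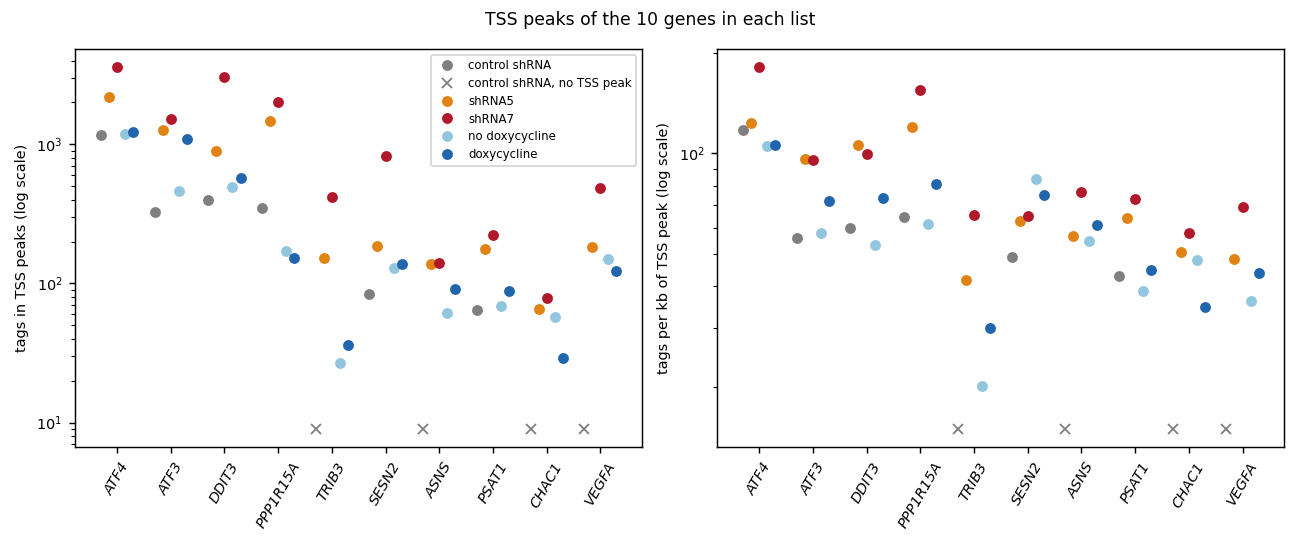
Tags in TSS peaks (left) and tags per kb of TSS peak (right) for each of the 10 genes, both on log scales, with 1 point per list and no error bars because each list is a single library. Crosses mark genes with no TSS peak in the control shRNA list and have no value. Within the knockdown arm the shRNA7 points are the highest for all 10 genes in the left panel.

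The metabolic targets were ASNS, PSAT1 and CHAC1. ASNS (ENSG00000070669, chr7:97480989-97501854, minus strand), asparagine synthetase, is a classical target of ATF4. It had no peak with the control shRNA, and its TSS tags were 139 upon shRNA5, 140 upon shRNA7, and 61 and 92 without and with doxycycline. The knockdown hairpins gave nearly the same number of tags, and the ratio with doxycycline was 1.51 (1.08 to 2.12, 87.8th percentile). The TGATGAAA letters printed above lay under the TSS peak in the 4 lists that had one.

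PSAT1 (ENSG00000135069, chr9:80912041-80945009, plus strand), an enzyme of serine synthesis, had 65 TSS tags with the control shRNA, 177 upon shRNA5, 224 upon shRNA7, and 69 and 88 without and with doxycycline. The knockdown lists were above the control by 2.72 (2.04 to 3.68) and 3.45 (2.60 to 4.62). The ratio with doxycycline, 1.28 (0.920 to 1.77), has an interval that includes 1.

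CHAC1 (ENSG00000128965, chr15:41245160-41248710, plus strand), which degrades glutathione, had no peak with the control shRNA, 66 TSS tags upon shRNA5, 79 upon shRNA7, and 57 and 29 without and with doxycycline. It was the lowest of the set in the doxycycline comparison, with a ratio of 0.509 (0.314 to 0.809) at the 6.80th percentile of all genes. Per kb of TSS peak the ratio was 0.723, and that density ratio stood at the 2.59th percentile. Among the 9 promoter sequences searched, which did not include VEGFA, only that of CHAC1 held TGATGCAA. Bases further upstream and promoters at other starts were not searched, so the other members may hold it there. The summits of CHAC1 lay within 52 bp of the start at 41245669 in the 4 lists with a peak.

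VEGFA (ENSG00000112715, chr6:43737921-43754224, plus strand), a secreted growth factor for blood vessels whose transcription ATF4 can raise, had no TSS peak with the control shRNA, but a body peak of 104 tags over its 3′ end. TSS tags were 184 upon shRNA5, 488 upon shRNA7, and 151 and 122 without and with doxycycline. The ratio with doxycycline was 0.808 (0.631 to 1.03), and 0.245 when only the outermost start was used, since the longer of its TSS peaks touched that window without the drug but not with it. VEGFA was thus the one member with a control peak at the 3′ end and none at the start.

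The knockdown lists were then compared with the control over the set as a whole. They share the control list, so the comparisons are not independent. All 4 genes without a control TSS peak had one upon shRNA5, against 33% of all genes without a control TSS peak, and all 4 had one upon shRNA7, against 44.2%. No TSS peak of a member was found in the control list alone. Among the 6 genes with a TSS peak in both lists, 5 had at least 2-fold more TSS tags upon shRNA5, against 56.6% of all such genes, and 6 did upon shRNA7, against 89.6%. The exception upon shRNA5 was ATF4. The median ratio over the 6 genes was 2.49 for shRNA5, against 2.14 over 3450 genes, and 5.26 for shRNA7, against 3.71 over 3258 genes. Most genes thus had more TSS tags in the knockdown lists, and the 6 members lay on both sides of the median of all genes.

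Part of this difference lay in peak length. The median ratio of TSS peak length was 1.80 for shRNA5 and 2.58 for shRNA7, against 1.58 and 2.50 over all genes. Per kb of TSS peak, the median ratio of the members was 1.61 for shRNA5 (1.33 over all genes) and 1.68 for shRNA7 (1.55 over all genes). The fold enrichment deposited for the peaks, which is relative to local background, gave medians of 1.09 for shRNA5 and 0.821 for shRNA7 (0.982 and 1.07 over all genes). The direction for shRNA7 was therefore opposite on that scale, with 5 of the 6 genes below 1 and SESN2 above it. Depth of the libraries and of their IgG controls was not tested as a source of these differences.

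**Figure D3:**
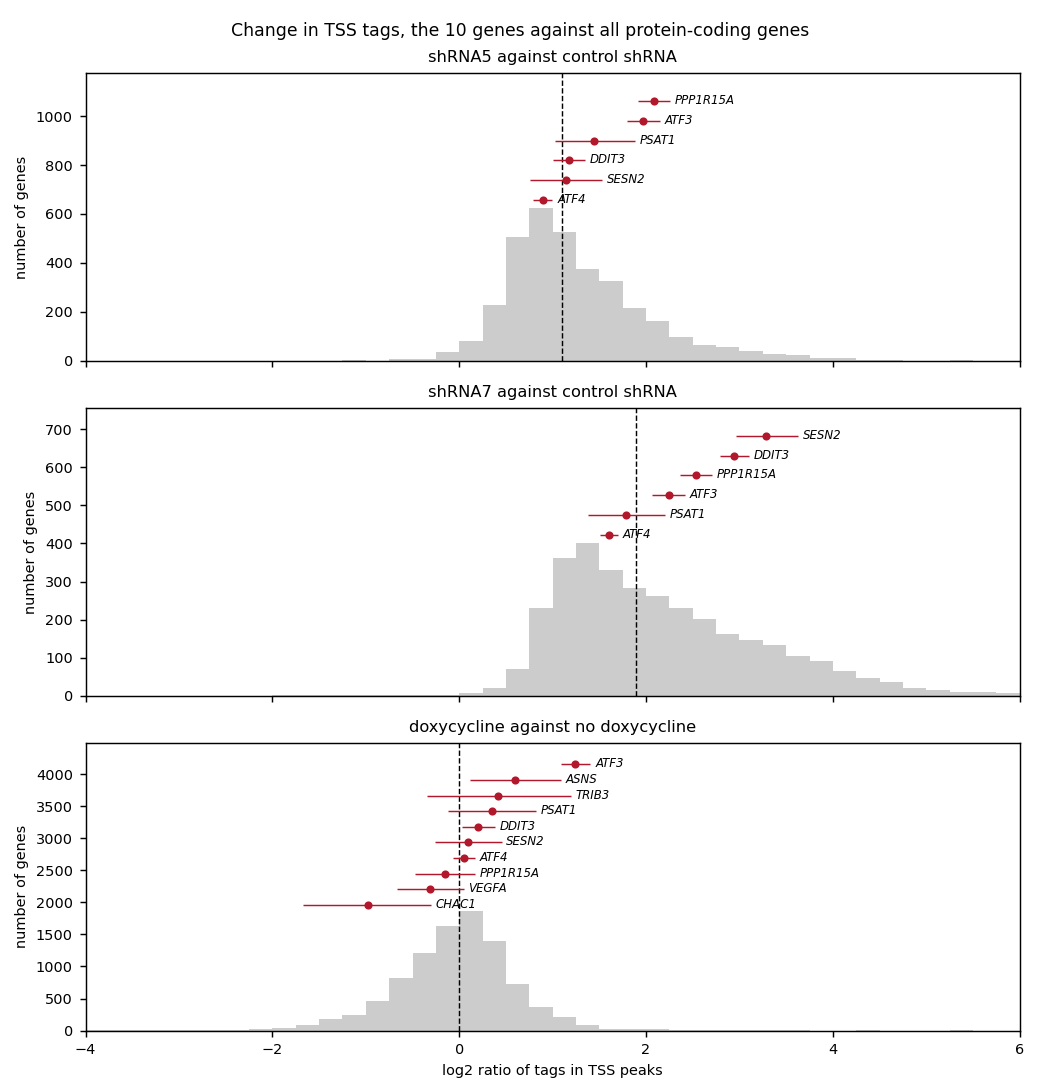
Histograms of the log2 ratio of TSS tags over all protein-coding genes with a TSS peak in both lists, for shRNA5, shRNA7 and doxycycline, with the dashed line at the median of all genes. Red points are the members with exact 95% intervals for counting error (their height has no meaning); PPP1R15A is highest upon shRNA5, SESN2 upon shRNA7 and ATF3 with doxycycline.

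With doxycycline, TSS tags of 7 members were within 1.5-fold of those without it. Of the 10 genes 7 had more TSS tags and 3 fewer, against 4536 and 4721 of 9471 genes. The median ratio was 1.11, against 1.00 over the 9471 genes. Only ATF3 was at least 2-fold higher, against 4.04% of all genes, and none was at least 2-fold lower, against 6.7%. CHAC1, at 0.509, was just inside that limit. These counts depended on the setting: VEGFA (0.245) was past the limit with the outermost start only, CHAC1 (0.433) with all peaks of the gene, and ATF3 (1.70) was no longer past it with neighbouring peaks merged. The intervals of 6 of the 10 ratios included 1, those of ATF4, TRIB3, SESN2, PPP1R15A, VEGFA and PSAT1. Per kb of TSS peak the median ratio was 1.18, near the 1.14 of all genes, and by fold enrichment it was 0.509, near the 0.491 of all genes.

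Body peaks of the set were counted next. The 10 genes together had 3 body peaks with the control shRNA, 15 upon shRNA5, 16 upon shRNA7, and 31 and 21 without and with doxycycline. More body peaks than in the control were found in 5 genes upon shRNA5 (ATF3, SESN2, ASNS, PSAT1 and CHAC1), against 29.2% of all genes, and in no member were there fewer (2.02% of all genes). Upon shRNA7 there were more in 6 genes (ATF3, TRIB3, ASNS, PSAT1, CHAC1 and VEGFA), against 37.5% of all genes, and again fewer in none (3.77% of all genes). With doxycycline 2 genes had more body peaks (9.15% of all genes) and 5 had fewer (29.3% of all genes). The genes with more were SESN2 and VEGFA, and those with fewer were ATF3, TRIB3, ASNS, PSAT1 and CHAC1. These counts depended on the weaker peaks. With fold enrichment of at least 10 the numbers were 2, 1 and 3 in the knockdown arm, which turns the direction for shRNA5, and 29 and 6 without and with doxycycline, and among peaks scoring 100 or more the doxycycline arm had 10 in either list.

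The peaks counted in the arms were of different size. Median body peak length was 1682, 2456 and 2554 bp with the control shRNA, shRNA5 and shRNA7, and 597 and 788 bp without and with doxycycline. A single body peak held 49 to 104 tags with the control shRNA, 40 to 542 upon shRNA5, 37 to 1305 upon shRNA7, 9 to 114 without doxycycline and 12 to 184 with it. Body tags of the set summed to 235, 2125 and 3219 in the knockdown arm and to 721 and 832 in the doxycycline arm. The doxycycline list thus had fewer body peaks but more tags in them than the list without the drug.

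SESN2 shows how a count of peaks and the RNAPII it holds can part. It had 1 body peak with the control shRNA, 5 upon shRNA5, 1 upon shRNA7, and 9 and 10 without and with doxycycline. The tags in them were 49, 887, 1305, 243 and 455 in that order. The single shRNA7 body peak was 16507 bp long and ran past the gene end, with 69.1% of it in the widened span. The 5 of shRNA5 ranged from 40 to 542 tags. That of 542 tags also ran past the gene end, with 24.7% of it in the widened span. For the control body peak the share was 47.8%, so tags beyond the gene count in each of these lists. Over all its peaks SESN2 had 133 tags with the control shRNA, 1072 upon shRNA5 (ratio 8.06, interval 6.73 to 9.73) and 2124 upon shRNA7 (ratio 16.0, interval 13.4 to 19.2), at the 88.1st and 86.1st percentiles of all genes.

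PSAT1 had no body peak with the control shRNA, 2 upon shRNA5, 4 upon shRNA7, and 6 and 2 without and with doxycycline. Without doxycycline these held 9 to 13 tags each, at or little above the weakest peaks of that list, and the count of PSAT1 rests on peaks of that size. ATF3 had 1, 3, 5, 6 and 1 body peaks in the same order of lists. Those upon shRNA5, upon shRNA7 and without doxycycline included one about 1.8 kb past the outermost start, which had no peak itself. Upon shRNA5 and shRNA7 the body peak at the gene end also reached within 500 bp of a start of GARIN4. ASNS had 0, 3, 1, 2 and 1 body peaks, all with summits in introns, and TRIB3 had 0, 0, 2, 2 and 1. ATF4 and DDIT3 had none in any list, because 1 long TSS peak, with a shorter one upstream for DDIT3 in the doxycycline arm, took up the whole gene or nearly so.

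**Figure D4:**
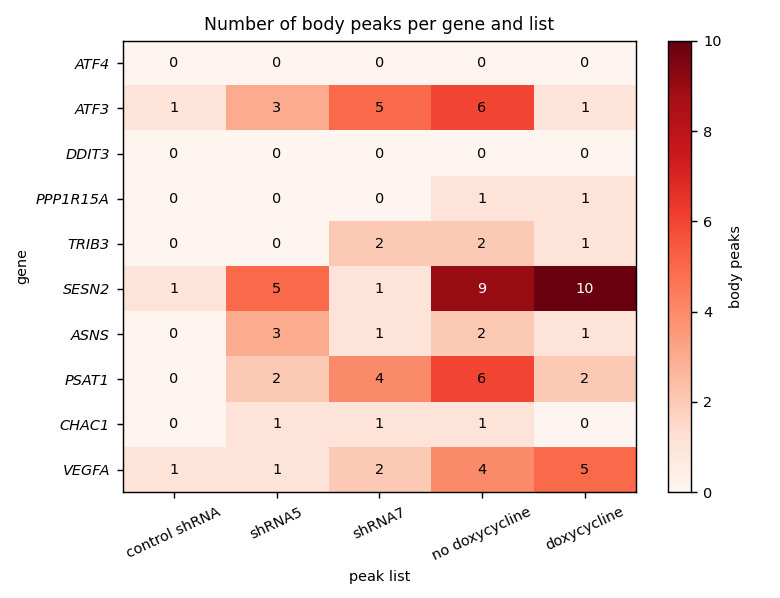
Number of body peaks for each of the 10 genes (rows) in each list (columns), with the number printed in every cell and shaded from 0 to 10. SESN2 has the most in the doxycycline arm (9 and 10), and ATF4 and DDIT3 have none in any list.

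RNAPII at the end of the gene was looked at after the values were seen, since several peaks lay there. A peak covered the annotated end of 6 genes with the control shRNA, 6 upon shRNA5, 8 upon shRNA7, and 7 and 6 without and with doxycycline. The shares over all protein-coding genes were 6.94, 19.7, 28.9, 11.1 and 9.15% in that order. For ATF4, DDIT3 and PPP1R15A, which are under 6 kb long, a peak can reach from start to end, so their part in these counts goes with their length. In CHAC1, body peaks upon shRNA5 and shRNA7 held 117 and 120 tags with summits 1066 and 1051 bp past the gene end. Per kb these were 46.0 and 51.0 tags, against 50.6 and 57.6 in the TSS peaks of the same lists. In SESN2 the summit of the last body peak lay 768, 3114 and 1739 bp past the gene end with the control shRNA, shRNA5 and shRNA7. In PSAT1 the last of the 2 shRNA5 body peaks (98 tags) had its summit 1015 bp past the gene end. Of its length 0.726% lay within the widened span. No other list had a peak touching that end of the widened span, and peaks wholly beyond it were not looked at.

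The share of the gene span under peaks, also chosen after the values were seen, put these patterns on 1 scale. Upon shRNA5 it was larger than in the control in 8 of the 10 genes, against 50.2% of all genes, and smaller in none, against 0.888%. Upon shRNA7 it was larger in 8 as well, against 58.8% of all genes, and smaller in none, against 1.32%. The remaining genes, ATF4 and PPP1R15A, were wholly covered in all 3 lists. The shares over all genes take in genes without a peak in either list, which cannot differ in coverage. With doxycycline it was larger in 3 genes (16.3% of all genes) and smaller in 6 (47.2% of all genes). The median share was 5.04% with the control shRNA, 35.95% upon shRNA5, 58.5% upon shRNA7, and 32.1% and 27.5% without and with doxycycline. Over all genes with a TSS peak in the list, the medians were 5.65, 10.6, 16.5, 4.93 and 4.04%. In the control list these bases differ, since the member median also takes in ASNS, TRIB3, CHAC1 and VEGFA, which had no TSS peak there. The members with one had 100% (ATF4 and PPP1R15A), 88.6% (DDIT3), 10.6% (ATF3), 4.14% (SESN2) and 1.51% (PSAT1) covered. The control medians therefore cannot be set against each other. SESN2 went from 4.14% with the control shRNA to 94.6% upon shRNA7, and VEGFA from 5.94 to 68.5%. ASNS was the member with less of its span covered upon shRNA7 (11.9%) than upon shRNA5 (41.3%).

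**Figure D5:**
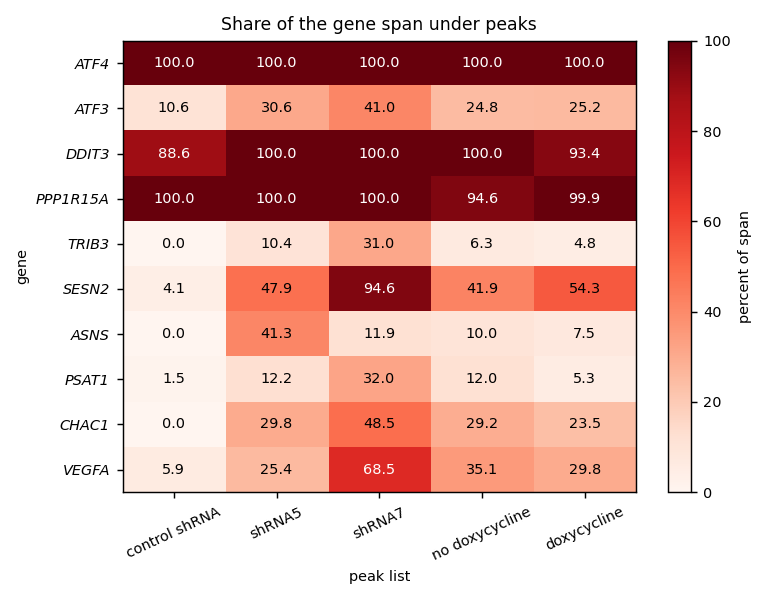
Share of each gene's annotated span that lies under peaks, in percent, for the 10 genes (rows) and 5 lists (columns), printed in every cell. ATF4 is at 100 in every list, and SESN2 ranges from 4.1 with the control shRNA to 94.6 upon shRNA7.

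A wider list of 46 other genes of the response was described in the same way. A TSS peak was found in 18 of them with the control shRNA (17.2% of all genes), 39 upon shRNA5 (44.5%), 42 upon shRNA7 (52.8%), and 43 and 41 without and with doxycycline (56.9 and 48.2%). NUPR1, a stress-induced transcriptional regulator, and FGF21, a secreted metabolic hormone, had none in any list. Of the 18 genes with a TSS peak in both lists, all 18 had more tags upon shRNA5, as did 3392 of 3450 over all genes. Their median ratio was 2.88, against 2.14 over all genes, and 16 were at least 2-fold higher (56.6% of all genes). Upon shRNA7 17 of 18 had more, as did 3246 of 3258 over all genes, with a median of 7.55, against 3.71 over all genes. The same 17 were at least 2-fold higher (89.6% of all genes). The longer peaks went with this: the median length ratio was 4.46, against 2.50 over all genes, while the median ratio was 1.58 per kb (1.55 over all genes) and 0.943 by fold enrichment (1.07 over all genes). By group, the shRNA7 median ratio of tags was 17.1 for 2 amino acid synthesis genes and 9.46 for 4 other stress-induced genes. It was 7.69 for the 1 partner transcription factor measured and 6.89 for 6 genes of tRNA charging and export. For 3 amino acid transporters it was 4.19, and for 2 genes of eIF2alpha and its kinases and phosphatases 3.33.

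The highest shRNA7 ratios in the wider list were those of SQSTM1, an autophagy receptor (2229 tags against 100, ratio 22.3, interval 18.2 to 27.5), PSPH, the last enzyme of serine synthesis (1536 against 69, ratio 22.3, 17.5 to 28.8), and MTHFD2, of mitochondrial folate metabolism (1695 against 141, ratio 12.02, 10.1 to 14.4). Their TSS peaks upon shRNA7 spanned 26.3, 18.4 and 24.7 kb, against 2.11, 1.33 and 2.30 kb with the control shRNA. The lowest were TARS1, the threonyl-tRNA synthetase (485 against 487 tags, ratio 0.996, 0.876 to 1.13), the amino acid transporter SLC38A2 (2772 against 1100, ratio 2.52, 2.35 to 2.70) and EIF2S1, which encodes eIF2alpha itself (354 against 130, ratio 2.72, 2.22 to 3.36). The TARS1 peak was 4.84 kb long upon shRNA7 and 8.49 kb with the control shRNA, so its density was 100 against 57.4 tags per kb. For SLC38A2 the peak lengths were alike, 17.3 and 16.3 kb, and the density went from 67.5 to 160 tags per kb. The genes of the wider list with the most control tags were SLC38A2 (1100), SLC3A2 (712) and TARS1 (487), at 67.5, 73.6 and 57.4 tags per kb against the 118 of ATF4. MARS1 shares a peak with DDIT3, and with the control shRNA this was its only TSS peak (398 tags). Tags of a member thus also count in the wider list, in the tRNA charging and export group.

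With doxycycline, 17 of the 40 wider genes with a TSS peak in both lists had more tags and 22 fewer. Of all 9471 such genes, 4536 had more and 4721 fewer. The median ratio of the wider genes was 0.977. There were 3 genes at least 2-fold higher and 1 at least 2-fold lower (4.04 and 6.7% of all genes). The 3 higher were CEBPG (683 tags against 264, ratio 2.59, 2.24 to 2.99), SARS1 (130 against 51, ratio 2.55, 1.83 to 3.60) and CEBPB (71 against 29, ratio 2.45, 1.57 to 3.91). CEBPG and CEBPB encode C/EBP factors that pair with ATF4, and SARS1 the seryl-tRNA synthetase. The TSS peaks of CEBPG, SARS1 and CEBPB were longer with doxycycline, with length ratios of 2.05, 1.37 and 2.27. Per kb their ratios were 1.26, 1.86 and 1.08, against a median of 1.14 over all genes. The lowest were SLC1A4 (14 against 29, ratio 0.483, 0.236 to 0.943) and SLC6A9 (20 against 38, ratio 0.526, 0.290 to 0.928), both amino acid transporters, and PHGDH (99 against 169, ratio 0.586, 0.452 to 0.755), the first enzyme of serine synthesis. Their TSS peaks were shorter with doxycycline, and per kb the ratios were on the other side of 1, at 1.25, 1.26 and 1.08. More body peaks than in the control were found in 29 of the 46 upon shRNA5 (29.2% of all genes) and in 29 upon shRNA7 (37.5%), and fewer in 2 and 1 (2.02 and 3.77% of all genes). With doxycycline 11 had more and 24 fewer (9.15 and 29.3% of all genes).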

How the data were processed

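RNAPII ChIP-seq libraries from HEK293 cells were sequenced on the Illumina GAIIX by the authors. The submitters' processing notes name CASAVA 1.8, Bowtie 0.12.7 and MACS 1.4.2 and the hg19 build (GRCh37). Peaks had been called per library against IgG. The deposited tags are raw read counts within each peak, not normalised by the authors. The deposited score is 10 times the −log10 of the authors' p-value, fold enrichment is the authors' ratio to local background, and FDR is deposited in percent.

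Genes were taken from GENCODE release 44 lifted to GRCh37, which may differ from the authors' annotation. Ratios of tags carry exact conditional binomial (Clopper-Pearson) 95% intervals, covering counting error only, and percentiles are among all genes with a TSS peak in both lists. Values were called at 2-fold. Python 3.11.15 with pandas 2.3.3, numpy 2.4.6 and scipy 1.17.1 was used, and figures were drawn with matplotlib 3.10.9. The assignment of peaks to genes and the merging of peaks were tested on simulated peaks, and the other steps were not. Library totals were not used here, so the depth behind each value is its tag number.

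All 10 members are named. From the wider list, the genes named are the 3 highest and 3 lowest by TSS ratio for shRNA7 and for doxycycline and the 3 with most control tags, besides those with no TSS peak in any list. Members and lists were chosen with earlier results of these data known. Counts of the members' peaks and their tag ratios were recomputed under 8 other settings of peak and gene assignment, and the ratios also under 2 other measures and 1 added after the values were seen. The wider list, gene ends and span shares were not recomputed. No replicate could be left out, since each group had 1 library.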

Additional observations from a re-analysis of the deposited data

How the results depend on the processing

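Numbers of genes with a TSS peak stayed within 1.5-fold under every alternative tried, while counts of body peaks depended on the filter. With a significance score of at least 100, body peaks numbered 1 with the control shRNA, 10 upon shRNA7, 10 without doxycycline and 10 with it, and 2 genes had fewer body peaks with doxycycline. With an FDR of at most 5% they numbered 10 upon shRNA7. With fold enrichment of at least 10 they numbered 1 upon shRNA5, 3 upon shRNA7 and 6 with doxycycline. Under that filter 0 genes had more body peaks upon shRNA5 and 1 fewer, 1 had more upon shRNA7 and 0 with doxycycline, 2 TSS peaks were gained upon shRNA7 and 1 was lost with doxycycline. With peaks under 1 kb apart merged, body peaks numbered 17 without doxycycline and 11 with it, and 0 genes had more with doxycycline. A TSS window of 1 kb left 1 such gene. With the outermost start only, the control list had 6 body peaks, and 1 gene had fewer upon shRNA5 and 1 upon shRNA7.

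Tags per kb in place of tags gave median ratios of 1.61 for shRNA5 and 1.68 for shRNA7. Fold enrichment gave 1.09 for shRNA5, 0.821 for shRNA7 and 0.509 for doxycycline. On that scale the direction was opposite for DDIT3 (0.954) and PSAT1 (0.921) upon shRNA5, for ATF4 (0.835), ATF3 (0.807), DDIT3 (0.780), PPP1R15A (0.750) and PSAT1 (0.835) upon shRNA7, and for ATF3 with doxycycline (0.442). With neighbouring peaks merged, ratios upon shRNA5 went to 5.04 for DDIT3 and 2.91 for PPP1R15A, so that PPP1R15A was no longer the highest. Upon shRNA7 merging gave 6.11 for ATF3, 3.97 for PPP1R15A and 5.94 for PSAT1. With doxycycline it gave 1.70 for ATF3, 1.27 for PPP1R15A, 1.046 for VEGFA and 0.975 for ATF4. With doxycycline, the 1 kb window gave 1.98 for PPP1R15A and 1.046 for VEGFA, the outermost start gave 0.245 for VEGFA, and tags per kb gave 0.894 for SESN2, 1.31 for PPP1R15A and 1.21 for VEGFA. With all peaks of the gene, ratios were 8.06 and 16.0 for SESN2 and 5.83 and 9.20 for PSAT1 upon shRNA5 and shRNA7, and, with doxycycline, 1.72 for ATF3, 1.19 for PPP1R15A, 1.13 for VEGFA, 0.850 for PSAT1 and 0.433 for CHAC1. The cause of these differences was not tested.

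No paired analysis was possible because no group held more than 1 library and no result came from a test. Peak lists hold no signal below their threshold, so a missing peak in the control shRNA list, whose weakest peak had 35 tags, does not show that RNAPII was absent. Peaks that cover neighbouring genes limit DDIT3 and, upon shRNA7, ATF4.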
